A study of Homo sapiens and Mus musculus with 24 samples.

Results

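MHC class I presentation genes were followed in Caco-2 cells, a human line from a colorectal adenocarcinoma that forms an epithelial layer in culture. The members are the heavy chain genes HLA-B, HLA-C and HLA-E, the light chain gene B2M, the peptide transporter genes TAP1 and TAP2, the chaperone gene TAPBP and the immunoproteasome genes PSMB8 and PSMB9. They were found by matching the human Ensembl identifiers to gene symbols, and all 9 members were found among 58051 identifiers. The study asks what the DNA methyltransferase DNMT3A does in intestinal epithelium, and its RNA sequencing of Caco-2 compares cells with and without the enzyme. WT denotes the parental line. ΔDNMT3A lacks DNMT3A after CRISPR-Cas9 editing and was grown out by serial dilution as a clonal line. The lines labelled DNMT3A1 and DNMT3A2 are described as ΔDNMT3A cells that also hold a TY1-tagged isoform of the enzyme, DNMT3A1 or DNMT3A2, behind the CMV promoter in a piggyBac vector, expanded clonally in puromycin. The labels name no treatment of these cells, which were grown in MEM with fetal calf serum. A difference between lines can therefore be a difference between clones, and the genotype and the clone cannot be told apart here. The vector and the expansion in puromycin are described for the isoform lines only. Neither can be told apart from the isoforms here. There were 4 WT, 4 ΔDNMT3A, 3 DNMT3A1 and 4 DNMT3A2 libraries, and DNMT3A1 replicate 3 was not analysed here. The labels do not say that replicates came from separate cultures, so p-values measure the spread among these libraries, which may be technical.

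MHC class I molecules display short peptides from inside the cell to cytotoxic T cells. The proteasome cuts proteins into peptides, the TAP transporter carries these into the endoplasmic reticulum, and tapasin (TAPBP) holds empty class I molecules at the transporter until a peptide fits. A class I molecule needs a heavy chain and β2-microglobulin (B2M), and interferon raises these genes together through sites in their promoters, along with the immunoproteasome subunits that replace constitutive ones.

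The promoter stretches below are shown because the members moved to very different degrees, and the letters let a reader compare the genes that changed most (TAP1, TAP2, PSMB8) with the heavy chains. They come from the RefSeq windows of 250 bases before to 50 after each gene's start, on GRCh38.p14, and 8 of the 9 members had a window, while HLA-E had none. TAP1 and PSMB8 have 2 windows each, for different starts, and the stretches shown are from the first of TAP1 and the second of PSMB8. Capitals mark 4 motifs searched on both strands, namely the interferon response core (GAAA, any 2 bases, GAAA), the NF-κB site, the CCAAT box and the cAMP response core TGACG. Positions are counted from the RefSeq start, and each stretch reads 5′ to 3′ on the gene's own strand.
HLA-B, chr6:31357264-31357359, minus strand: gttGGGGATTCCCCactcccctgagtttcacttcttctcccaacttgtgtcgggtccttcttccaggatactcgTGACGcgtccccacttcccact
HLA-C, chr6:31272168-31272267, minus strand: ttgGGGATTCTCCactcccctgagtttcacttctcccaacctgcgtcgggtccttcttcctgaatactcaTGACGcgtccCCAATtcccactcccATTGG
B2M, chr15:44711367-44711472, plus strand: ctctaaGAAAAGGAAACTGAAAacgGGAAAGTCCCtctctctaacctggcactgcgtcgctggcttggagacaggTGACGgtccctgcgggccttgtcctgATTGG
TAP1, chr6:32853794-32853844, minus strand: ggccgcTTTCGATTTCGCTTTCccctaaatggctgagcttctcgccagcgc
TAP2, chr6:32838770-32838799, minus strand: gcGAAAGCGAAAgctgcccgagcccTGACG
TAPBP, chr6:33314079-33314108, minus strand: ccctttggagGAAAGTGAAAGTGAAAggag
PSMB8, chr6:32844042-32844087, minus strand: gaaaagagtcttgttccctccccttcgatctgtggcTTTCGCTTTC
PSMB9, chr6:32854042-32854071, plus strand: ctgcctCGTCActtgtctcggggcagatct

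The interferon response core was matched in the windows of B2M, TAP1, TAP2, TAPBP and PSMB8, overlapping with itself in B2M, TAP1 and TAPBP, which hold 2 matches each. The matches of TAP1 are in its first window and that of PSMB8 is in its second. It was not matched in the windows of HLA-B, HLA-C or PSMB9, in the second of TAP1 or in the first of PSMB8. Of all 35114 promoter windows, 3.57% hold it. Only exact matches were sought, so a window without one can still hold a variant of the site, which stays in lower case. A site can also lie beyond a window. The first TAP1 window (32853655 to 32853954, minus strand) meets the PSMB9 window (32853942 to 32854241, plus strand) head to head. The interferon response cores printed for TAP1 thus lie upstream of the PSMB9 start, outside the PSMB9 window. The NF-κB site, in 5.91% of all windows, was matched in HLA-B, HLA-C, B2M, TAP1 and TAPBP. Its matches in TAP1 (from -72 and from 23) and TAPBP (from -56) lie outside the stretches printed. The CCAAT box stands in 34.6% and the cAMP response core in 24.6% of all windows, so a match to either is common. CCAAT boxes of HLA-B (from -81, -74 and -56), HLA-C (from -192 and -56), TAP1 (from -249) and PSMB9 (from -243) also lie outside the stretches printed. The whole windows of HLA-B and HLA-C hold 3 and 4 CCAAT boxes. The first PSMB8 window, not printed, holds a cAMP response core from -69. CpG, the dinucleotide that DNMT3A methylates, occurs 14 times in the median window. The members' windows ranged from 26 in PSMB9, 24 in TAP2 and 22 in HLA-B, B2M and the first TAP1 window, through 19 in HLA-C and 17 and 15 in the PSMB8 windows, to 12 in TAPBP and 11 in the second TAP1 window. DNA methylation itself was not analysed here, and a match is only a description of these letters.

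Library totals ranged from 22104408 to 42161299 counted fragments, with a median of 30442451. Levels are given as CPM, the count of a gene relative to the total of its library, scaled over all 15 libraries, and a fold change is taken from edgeR's quasi-likelihood test on 2 groups with Benjamini-Hochberg adjustment over all tested genes, called at an adjusted p under 0.05. DNMT3A checks the labels. It was at 63.6, 62.0, 67.1 and 65.7 CPM in WT and at 22.3, 20.7, 20.6 and 19.3 CPM in ΔDNMT3A. The log2 fold change was -1.65 (standard error (SE) 0.0428, adjusted p = 4.3e-20). DNMT3A1 libraries held 36.6, 39.04 and 38.3 CPM, above ΔDNMT3A by 0.87 on the log2 scale (adjusted p = 1.91e-11). The libraries labelled DNMT3A2 held 20.1, 22.3, 23.5 and 21.7 CPM, and this difference from ΔDNMT3A, 0.07, did not pass the test (adjusted p = 0.272). An introduced coding sequence would add to the count of the gene. The gene-level DNMT3A mRNA of these libraries therefore does not by itself bear out their label. Gene counts cannot separate the introduced sequence from the cell's own DNMT3A transcript. The paper reports both isoforms as re-expressed by immunoblot and located in nuclei by immunofluorescence. DNMT3A2 here names the libraries as labelled. In all, 8 of 9 epithelial markers, among them EPCAM and KRT8, had a mean of at least 1 CPM in each line, and CDX1 was near 0. Leukocyte markers summed to between 18.2 and 42.96 CPM per library and PTPRC, which marks all leukocytes, was at or near 0. The highest of these markers were CD14 and LYZ. Over WT, ΔDNMT3A, DNMT3A1 and DNMT3A2, CD14 had means of 21.8, 10.8, 16.0 and 15.3 CPM and LYZ of 18.9, 15.4, 4.34 and 2.52 CPM. Fibroblast and endothelial markers summed to between 30.04 and 56.8 CPM, led in WT by COL1A1 (26.7 CPM), PDGFRB (19.0 CPM) and PECAM1 (7.44 CPM). Bulk counts cannot tell fewer expressing cells from less RNA per cell.

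The members differed widely in level in WT. Levels per length are given as TPM, which corrects for exon length within each library and is not scaled over the 15 libraries. In TPM, B2M (108 ± 5.2) and HLA-C (104 ± 6.13) led and their libraries overlapped. Next came HLA-E (66.4 ± 2.31), TAPBP (35.4 ± 0.841) and HLA-B (28.9 ± 1.13, all SD with n = 4 each). PSMB8 (4.03 ± 0.836), TAP2 (3.42 ± 0.285) and TAP1 (3.24 ± 0.173) lay lower, with overlapping neighbours in that order, and PSMB9 was the lowest at 0.321 ± 0.104 TPM. In ΔDNMT3A, TAP1 moved ahead of TAP2 and PSMB8, with 4.87 ± 0.505 TPM, although its libraries overlapped those of PSMB8. In DNMT3A1, B2M (67.1 ± 3.61 TPM, n = 3) came after HLA-C (104 ± 2.33) and HLA-E (72.9 ± 2.87), and it overlapped HLA-E. In the line labelled DNMT3A2, the 5 leading members kept at least 11.3 TPM, while TAP2 was at 0.591 ± 0.131, TAP1 at 0.401 ± 0.190, PSMB8 at 0.0922 ± 0.107 and PSMB9 at 0.0181 ± 0.0211 TPM (SD, n = 4 each).

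**Figure D1:**
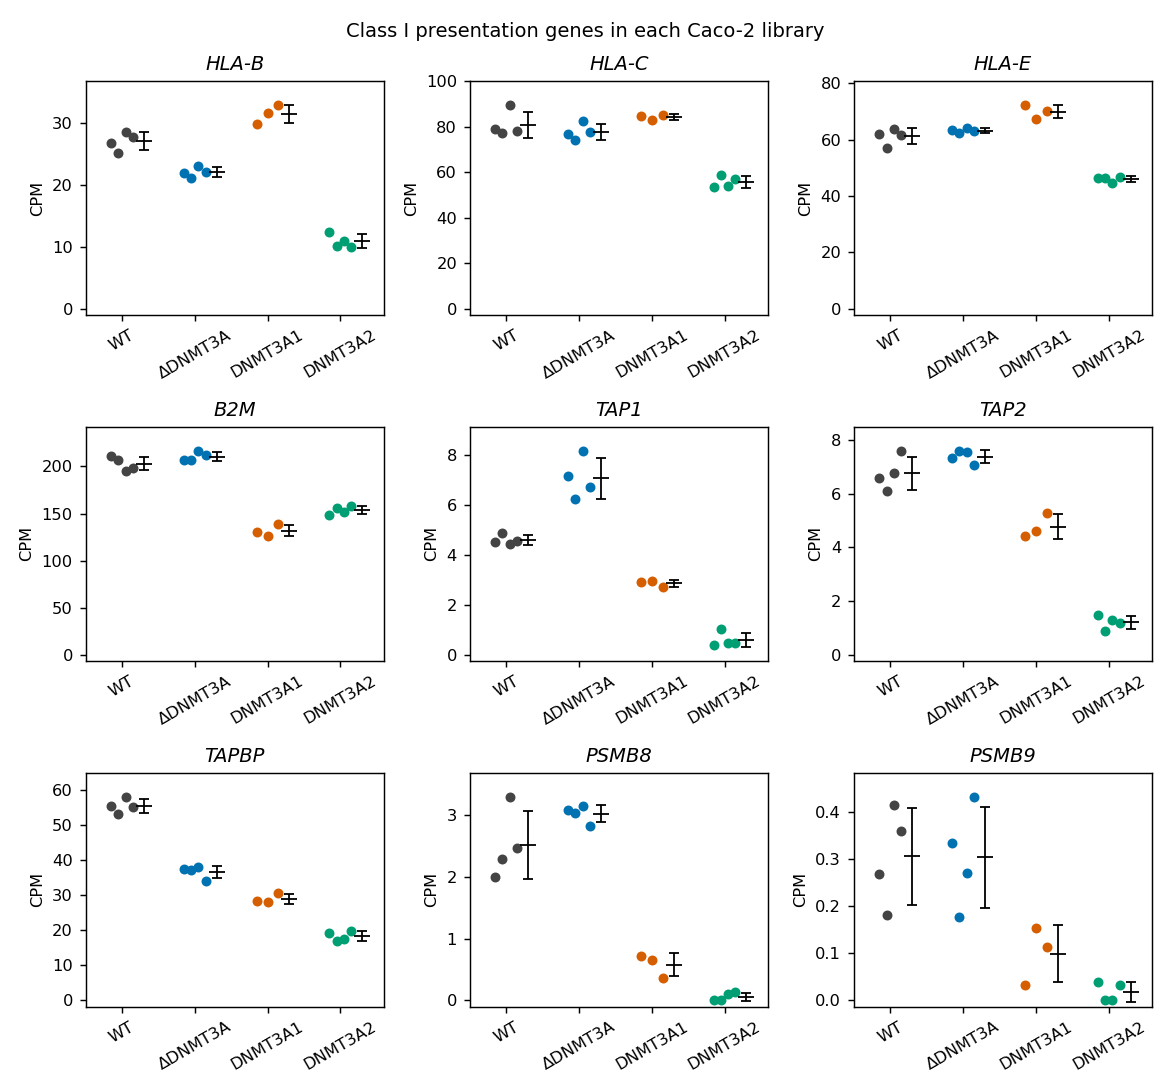
CPM of each member (vertical axes, linear, with a scale of their own) in every library of WT, ΔDNMT3A, DNMT3A1 and DNMT3A2. Points are libraries and the black mark is the mean ± SD. TAP1, TAP2, PSMB8 and PSMB9 were near the bottom of their scales in DNMT3A2, while HLA-B was highest and B2M lowest in DNMT3A1.

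The heavy chains present the peptide. HLA-B (ENSG00000234745, chromosome 6, 31353872 to 31357188 on GRCh38, minus strand) is a classical, highly polymorphic heavy chain gene. It was at 26.8, 25.1, 28.4 and 27.6 CPM in WT, 21.8, 21.1, 23.0 and 22.1 CPM in ΔDNMT3A, 29.8, 31.6 and 32.8 CPM in DNMT3A1 and 12.4, 10.1, 11.0 and 10.04 CPM in DNMT3A2. No groups overlapped, and DNMT3A1 was the highest and DNMT3A2 the lowest of the 4 lines. Its log2 fold change was -0.31 in ΔDNMT3A against WT (SE 0.0492, adjusted p = 7.59e-06). Against ΔDNMT3A, HLA-B rose in DNMT3A1 by 0.52 (adjusted p = 2.47e-08) and fell in the line labelled DNMT3A2, where the value was -1.02 (adjusted p = 1.86e-12). The isoform lines thus stood on opposite sides of the knockout, and between them the log2 fold change was -1.53 in DNMT3A2 against DNMT3A1 (SE 0.0651, adjusted p = 7.24e-17).

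HLA-C (ENSG00000204525, chromosome 6, 31268749 to 31272130, minus strand), a classical gene and a ligand source for killer cell receptors, was at 79.0, 77.1, 89.4 and 78.3 CPM in WT and at 76.7, 74.3, 82.6 and 77.7 CPM in ΔDNMT3A. These groups overlapped, and the difference did not pass the test (log2 fold change -0.07, adjusted p = 0.148). DNMT3A1 held 84.9, 82.8 and 85.0 CPM, and DNMT3A2 held 53.5, 59.0, 54.1 and 57.0 CPM, below every other library. HLA-C was lower in DNMT3A2 than in ΔDNMT3A by 1.4-fold (log2 fold change -0.48, adjusted p = 4.64e-11). In DNMT3A1 it was 0.12 above ΔDNMT3A on the log2 scale (adjusted p = 0.0125), and this call was lost without DNMT3A1 replicate 4 (adjusted p = 0.0547).

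HLA-E (ENSG00000204592, chromosome 6, 30489467 to 30494205, plus strand) is a nonclassical gene whose product shows leader peptides of other class I molecules to natural killer cells. It ranged from 57.1 to 63.6 CPM in WT, from 62.2 to 64.3 CPM in ΔDNMT3A, from 67.5 to 72.2 CPM in DNMT3A1 and from 44.5 to 46.7 CPM in DNMT3A2. WT and ΔDNMT3A overlapped (log2 fold change 0.03, adjusted p = 0.393), DNMT3A1 lay above both and DNMT3A2 below all. The log2 fold changes against ΔDNMT3A were 0.15 in DNMT3A1 (adjusted p = 0.00246) and -0.46 in DNMT3A2 (adjusted p = 5.21e-12). All 3 heavy chain members thus fell in the line labelled DNMT3A2 and rose in DNMT3A1, by 1.43-fold for HLA-B and by 1.11-fold or less for HLA-C and HLA-E. Caco-2 alleles can differ from the reference, and how many reads that loses was not tested. In reference transcripts, 0.188% of 75-base windows of HLA-B, 1.33% of HLA-C and 1.7% of HLA-E recur in another HLA gene. A larger share of the HLA-B windows, 25.8%, recurs in the pseudogene DHFRP2, which GENCODE v44 places at 31360865 to 31367354, beyond the HLA-B span used for counting.

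B2M (ENSG00000166710, chromosome 15, 44711477 to 44718877, plus strand) encodes the light chain that all class I heavy chains share. It was at 211, 207, 196 and 199 CPM in WT, 206, 206, 216 and 212 CPM in ΔDNMT3A, 131, 126 and 138 CPM in DNMT3A1 and 148, 156, 152 and 158 CPM in DNMT3A2. WT and ΔDNMT3A overlapped (log2 fold change 0.04, adjusted p = 0.248), and both isoform lines lay below them without overlap. B2M fell in DNMT3A1 with a log2 fold change of -0.67 against ΔDNMT3A (SE 0.0342, adjusted p = 1.63e-12) and in DNMT3A2 with -0.46 (adjusted p = 1.74e-13). It was the only called member that was lower in DNMT3A1 than in DNMT3A2, by 1.16-fold (adjusted p = 2.11e-06). The 50 tested genes around B2M on chromosome 15 moved too. Relative to ΔDNMT3A, their median log2 fold change was -0.12 for DNMT3A1 and 0.38 for DNMT3A2, and between the isoform lines it was 0.54 in DNMT3A2 against DNMT3A1. Their part in the B2M result was not tested. HLA-B, HLA-C and HLA-E summed to 3.01 to 3.19 times the TPM of B2M in the DNMT3A1 libraries. That ratio lay between 1.61 and 2.07 in all other libraries, and it is given as a description.

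The TAP transporter is a dimer of TAP1 and TAP2. TAP1 (ENSG00000168394, chromosome 6, 32845209 to 32853978, minus strand) was at 4.51, 4.85, 4.43 and 4.55 CPM in WT, 7.14, 6.21, 8.14 and 6.71 CPM in ΔDNMT3A, 2.92, 2.95 and 2.70 CPM in DNMT3A1 and 0.395, 1.01, 0.460 and 0.486 CPM in DNMT3A2. All 4 lines were apart, in the order ΔDNMT3A, WT, DNMT3A1 and DNMT3A2. TAP1 was the only member that rose in ΔDNMT3A against WT, by 1.53-fold (log2 fold change 0.61, SE 0.0885, adjusted p = 2.02e-06). Against ΔDNMT3A it fell in DNMT3A1 (-1.30, SE 0.113, adjusted p = 4.67e-09) and in the line labelled DNMT3A2 (-3.63, SE 0.172, adjusted p = 6.74e-15), which is 12.4-fold. Both lines also lay below WT, with log2 fold changes of -0.69 and -3.02 (adjusted p = 5.57e-06 and 1.22e-15).

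TAP2 (ENSG00000204267, chromosome 6, 32821833 to 32838780, minus strand) was at 6.57, 6.09, 6.79 and 7.58 CPM in WT and 7.33, 7.58, 7.57 and 7.07 CPM in ΔDNMT3A, which overlapped (log2 fold change 0.11, adjusted p = 0.23). It was at 4.43, 4.59 and 5.29 CPM in DNMT3A1 and at 1.46, 0.876, 1.31 and 1.17 CPM in DNMT3A2, both apart from each other and from the 2 former lines. The log2 fold changes against ΔDNMT3A were -0.62 in DNMT3A1 (SE 0.0905, adjusted p = 5.91e-06) and -2.61 in DNMT3A2 (SE 0.116, adjusted p = 2.19e-15). TAP2 shares 32.3% of its exonic bases with a readthrough gene on the same strand (ENSG00000250264), which held 1 count in all 15 libraries, and reads assigned to both genes were not counted.

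TAPBP (ENSG00000231925, chromosome 6, 33299694 to 33314387, minus strand), the tapasin gene, was at 55.5, 53.0, 57.9 and 55.1 CPM in WT, 37.4, 37.2, 37.97 and 34.1 CPM in ΔDNMT3A, 28.2, 27.9 and 30.5 CPM in DNMT3A1 and 19.3, 17.0, 17.4 and 19.8 CPM in DNMT3A2. The lines were apart in that order, each lower than the one before. TAPBP fell in ΔDNMT3A against WT, with a log2 fold change of -0.61 (SE 0.0389, adjusted p = 1.81e-12), where TAP1 rose. Against ΔDNMT3A it fell further in DNMT3A1 (-0.34, adjusted p = 9.98e-06) and in DNMT3A2 (-0.999, adjusted p = 4.94e-14), so that DNMT3A2 stood 3.04-fold below WT.

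**Figure D2:**
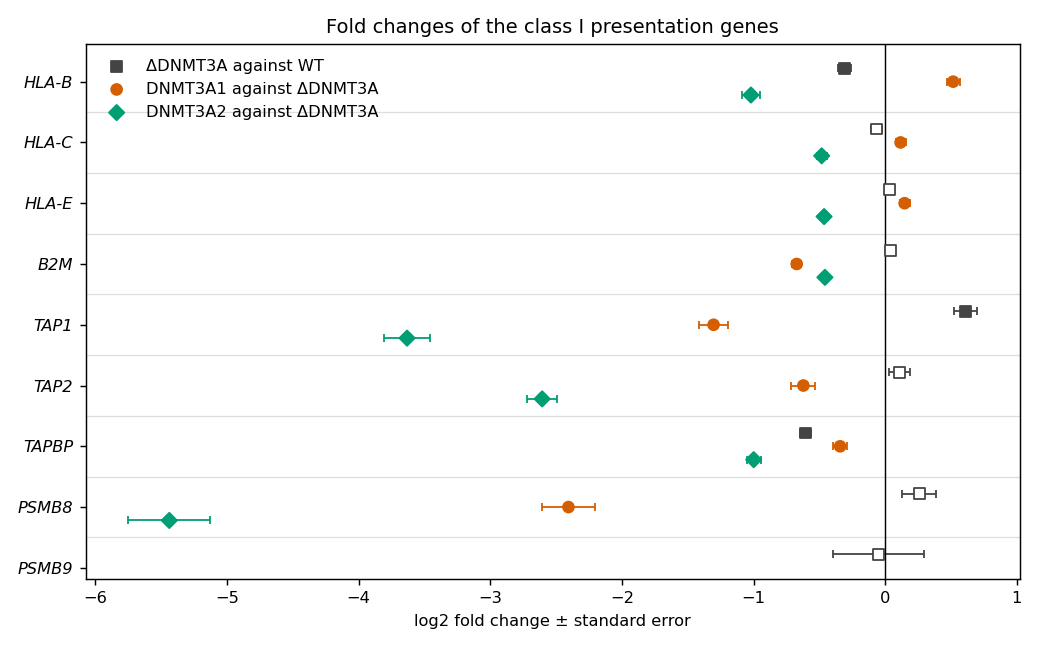
Log2 fold change (horizontal axis) with its standard error for each member in ΔDNMT3A against WT, DNMT3A1 against ΔDNMT3A and DNMT3A2 against ΔDNMT3A. Filled symbols passed the test at an adjusted p under 0.05 and open ones did not. PSMB9 has only the comparison in which it was tested, and the DNMT3A2 values reach from -0.46 for B2M and HLA-E to -5.44 for PSMB8.

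PSMB8 (ENSG00000204264, chromosome 6, 32840717 to 32844703, minus strand) encodes the immunoproteasome subunit that takes the place of PSMB5. Its counts were 67, 63, 103 and 96 in WT and 129, 102, 93 and 85 in ΔDNMT3A. DNMT3A1 libraries held 22, 17 and 13 counts and DNMT3A2 libraries 0, 0, 3 and 4. WT and ΔDNMT3A overlapped (2.51 ± 0.551 and 3.02 ± 0.138 CPM, SD, n = 4 each; log2 fold change 0.26, adjusted p = 0.0873), and without WT replicate 3 this rise, 0.41, passed the test (adjusted p = 0.00712). PSMB8 fell in DNMT3A1 with a log2 fold change of -2.41 against ΔDNMT3A (SE 0.202, adjusted p = 2.85e-09) and in the line labelled DNMT3A2 with -5.44 (SE 0.312, adjusted p = 2.48e-13). A fitted value against libraries at 0 depends on the prior count. Pooled over libraries and scaled to their depth, the 7 counts in DNMT3A2 against 409 in ΔDNMT3A are 45.8-fold fewer, with an exact 95% counting interval of 22.03 to 115. Against the 52 counts of DNMT3A1 they are 8.56-fold fewer (3.87 to 22.3).

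PSMB9 (ENSG00000240065, chromosome 6, 32844136 to 32859585, plus strand) replaces PSMB6. In the annotation used for counting its span encloses TAP1, which lies on the opposite strand. The WT libraries held 9, 5, 13 and 14 counts and the ΔDNMT3A libraries 14, 6, 8 and 13, whereas DNMT3A1 had 1, 4 and 4 and DNMT3A2 had 1, 0, 0 and 1. WT and ΔDNMT3A overlapped, and both lay above all libraries of the isoform lines, which overlapped each other. PSMB9 passed the filter on low counts only in ΔDNMT3A against WT (log2 fold change -0.05, SE 0.346, adjusted p = 0.91). Pooled, its 9 counts in DNMT3A1 were 3.1-fold fewer than the 41 of ΔDNMT3A (1.48 to 7.25) and its 2 counts in DNMT3A2 were 16.1-fold fewer (4.17 to 137). These intervals cover counting error only.

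The share of immunoproteasome to constitutive subunits within a library does not depend on scaling between libraries. PSMB8 stood at 1.2 to 2.02% of the TPM of PSMB5 in WT and 1.64 to 1.72% in ΔDNMT3A. It was at 0.184 to 0.371% in DNMT3A1 and at 0 to 0.0794% in DNMT3A2, so the isoform lines lay below the other lines and apart from each other. PSMB9 stood at 0.0608 to 0.128% of PSMB6 in WT and 0.0563 to 0.141% in ΔDNMT3A, against 0.00995 to 0.047% in DNMT3A1 and 0 to 0.0106% in DNMT3A2. In the exact two-sided permutation test of the log2 ratio (with 0.01 TPM added), PSMB8 to PSMB5 gave p = 0.0286 for DNMT3A2 against ΔDNMT3A and 0.0571 for DNMT3A1 against ΔDNMT3A, the smallest p that 4 against 4 and 3 against 4 libraries allow. Adjusted over the 12 ratio tests, both were at p = 0.0761 in these exact tests. With these sizes the 12 adjusted values cannot go below 0.0571, so the design cannot reach the threshold. The constitutive partners moved little, with log2 fold changes of 0.11 and -0.15 for PSMB5 and 0.05 and 0.23 for PSMB6 in DNMT3A1 and DNMT3A2 against ΔDNMT3A, of which that of PSMB6 in DNMT3A1 did not pass the test (adjusted p = 0.128).

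**Figure D3:**
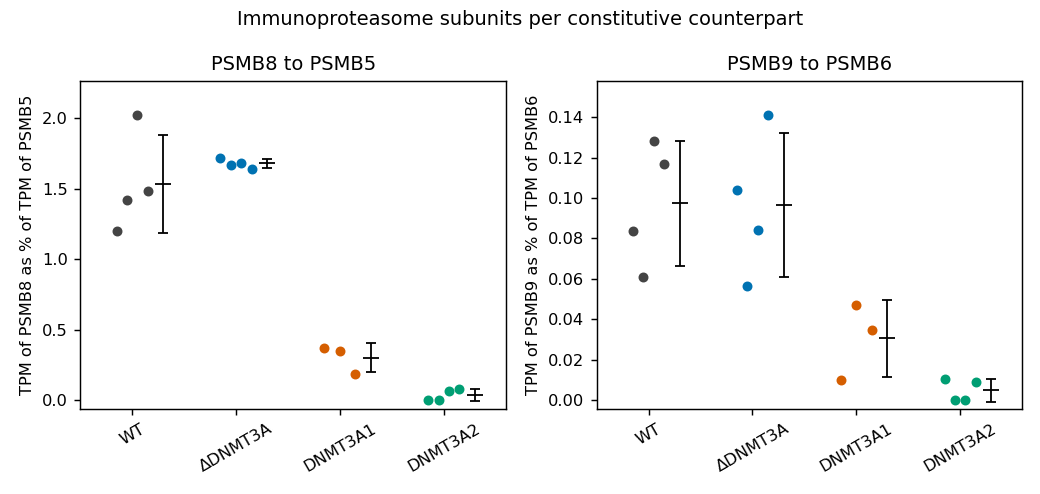
TPM of PSMB8 as a percent of PSMB5 (left) and of PSMB9 as a percent of PSMB6 (right) in each library, with mean ± SD in black, on linear axes. The ΔDNMT3A libraries keep PSMB8 at 1.64 to 1.72% of PSMB5, and all DNMT3A1 and DNMT3A2 libraries lie at 0.371% or less.

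Counted by comparison, ΔDNMT3A against WT called 1 of 9 members higher (TAP1) and 2 lower (HLA-B and TAPBP), where 62.2% of 16654 tested genes were called, 31.2% higher and 31.0% lower. The count of called members did not exceed that background, and their median log2 fold change was 0.04 against -0.00494 over all tested genes. In DNMT3A1 against ΔDNMT3A all 8 tested members were called, 3 higher and 5 lower, where 60.7% of genes were called, 30.4% higher and 30.3% lower. The median was -0.48. In DNMT3A2 against ΔDNMT3A all 8 tested members were lower, where 67.9% of genes were called and 34.1% were lower. The median was -1.01, and 4 of the 8, namely HLA-B, TAP1, TAP2 and PSMB8, had a log2 fold change of -1 or beyond, which 7.47% of tested genes had in that direction. These comparisons share the ΔDNMT3A libraries. With 0 to 4 counts per DNMT3A2 library, PSMB8 passed the filter on low counts in comparisons with DNMT3A2 only through the other line.

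Against WT, DNMT3A1 had 2 members higher (HLA-B and HLA-E), 5 lower and HLA-C not called, where 65.3% of genes were called, 32.6% higher and 32.7% lower. DNMT3A2 had all 8 tested members lower than WT, where 68.7% of genes were called and 34.4% were lower, and the members' median was -1.47. The line labelled DNMT3A2 therefore stood below the parental cells, not only below the knockout. In DNMT3A2 against DNMT3A1, 7 of 8 were lower and B2M higher, where 68.5% of genes were called, 33.9% higher and 34.5% lower. The largest differences between the isoform lines were those of PSMB8 (-3.03, SE 0.543, adjusted p = 2.21e-05), TAP1 (-2.32, SE 0.224, adjusted p = 1.01e-09) and TAP2 (-1.98, SE 0.152, adjusted p = 1.25e-11). PSMB8 was tested there only because of its DNMT3A1 counts, so its rank and p-value are no independent result. Its difference was -2.97 in sequencing lane 5 and -1.1 in lane 6.

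Other genes of the presentation pathway were taken from lists. Among 8 genes of peptide loading and trimming, 2 were higher and 5 lower in DNMT3A2 against ΔDNMT3A (median -0.46), where 67.9% of all tested genes were called and 34.1% were lower. In DNMT3A1 4 were higher and 3 lower (median -0.01), where 60.7% of all tested genes were called. ERAP2, an aminopeptidase that trims peptides to fit, rose in ΔDNMT3A against WT by 0.58 on the log2 scale (adjusted p = 4.86e-13). It fell in both isoform lines against ΔDNMT3A, with -1.07 in DNMT3A1 and -1.83 in DNMT3A2 (adjusted p = 2.26e-13 and 1.75e-20), the same order of lines as TAP1. ERAP1, its companion, had 0.07, -0.27 and -0.81 in the same comparisons, all called. The lectin chaperone calreticulin (CALR) fell in ΔDNMT3A (-0.31), rose in DNMT3A1 (0.19) and fell in DNMT3A2 (-0.81), as HLA-B did. Calnexin (CANX), its membrane-bound relative, rose in ΔDNMT3A (0.49) and the glucosidase gene GANAB fell (-0.36).

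Among the other immunoproteasome and activator genes, PSMB10, the third immunoproteasome subunit, encoded on another chromosome, was called in the same directions as TAP1. Its log2 fold changes were 0.49 in ΔDNMT3A against WT, -1.51 in DNMT3A1 and -1.27 in DNMT3A2 against ΔDNMT3A (adjusted p = 8.54e-05, 4.94e-10 and 4.24e-11). The proteasome activator genes PSME1 and PSME2 fell in DNMT3A2 against ΔDNMT3A (-1.02 and -0.65), whereas in DNMT3A1 their values, 0.09 and -0.03, did not pass the test (adjusted p = 0.0674 and 0.528). POMP, a proteasome maturation factor, fell in DNMT3A1 (-0.68) and rose slightly in DNMT3A2 (0.08, adjusted p = 0.0148). The 14 constitutive 20S subunits showed 8 higher and none lower in ΔDNMT3A against WT (median 0.09), where 31.2% of all tested genes were higher and 31.0% lower, led by PSMA3 (0.40) and PSMA6 (0.29). They showed 4 higher and 6 lower in DNMT3A1 (median -0.07) and 6 higher and 5 lower in DNMT3A2 (median 0.02) against ΔDNMT3A, beside 60.7 and 67.9% of all tested genes called.

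Of 7 other class I heavy chain genes, 5 were tested. MR1, which presents vitamin metabolites to MAIT cells, rose in ΔDNMT3A (0.95) and in DNMT3A1 against ΔDNMT3A (0.30), and fell in DNMT3A2 (-0.80). HFE, a regulator of iron uptake, followed the directions of HLA-B with -0.57, 0.84 and -0.30. MICA, a stress ligand of NKG2D, fell in all 3 comparisons (-0.29, -0.38 and -1.17). HLA-F was too low to be tested, with 40 counts in WT and 19 in ΔDNMT3A, then 8 in DNMT3A1 and 0 in DNMT3A2. By the exact 95% counting limit HLA-F was at least 3.66-fold lower in DNMT3A2 than in ΔDNMT3A, and a floor of 3 counts over the group gives 4.97-fold.

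Few MHC class II genes were measurable, with HLA-DRA at 0 in every library. CD74, the class II invariant chain, was abundant and fell in ΔDNMT3A (-0.42) and, against ΔDNMT3A, in DNMT3A1 (-0.38) and DNMT3A2 (-0.85). HLA-DPA1 and HLA-DPB1, which were singled out after their values were seen, went the other way from TAP1 in DNMT3A1. Summed over the libraries of WT, ΔDNMT3A, DNMT3A1 and DNMT3A2, HLA-DPA1 held 6, 50, 104 and 2 counts and HLA-DPB1 held 1, 17, 106 and 6.

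Of 15 regulators of class I genes, 14 were tested, and CIITA, the class II master regulator, was near 0. NLRC5, the class I transactivator, acts through a complex on the promoters of heavy chain, B2M, TAP1 and immunoproteasome genes. Its counts were 18, 14, 25 and 22 in WT and 86, 67, 55 and 63 in ΔDNMT3A. They were 12, 13 and 15 in DNMT3A1, with 11, 9, 7 and 16 in DNMT3A2. NLRC5 was highest in every ΔDNMT3A library, with a log2 fold change of 1.72 against WT (SE 0.177, adjusted p = 8.8e-09). It fell in DNMT3A1 (-2.19, adjusted p = 2.18e-08) and in DNMT3A2 (-2.30, adjusted p = 1.07e-09) against ΔDNMT3A. Between the isoform lines the NLRC5 value was -0.11 (SE 0.336) and did not pass the test (adjusted p = 0.795), on 7 to 16 counts per library. The part of NLRC5 in the member differences was not tested.

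IRF1, an interferon-induced activator that binds the interferon response core, rose in ΔDNMT3A (0.22, adjusted p = 0.00134) and fell in DNMT3A1 (-0.51) and DNMT3A2 (-0.70) against it. IRF2, which binds the same core as IRF1, fell in ΔDNMT3A (-0.79), rose in DNMT3A1 (0.47) and fell in DNMT3A2 (-0.24). RFX5, a subunit of the complex that NLRC5 joins, fell in ΔDNMT3A (-0.60). Over the list, 2 regulators were higher and 6 lower in ΔDNMT3A against WT, 6 higher and 5 lower in DNMT3A1, and 5 higher and 6 lower in DNMT3A2. Of all tested genes, 62.2, 60.7 and 67.9% were called in the same comparisons.

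**Figure D4:**
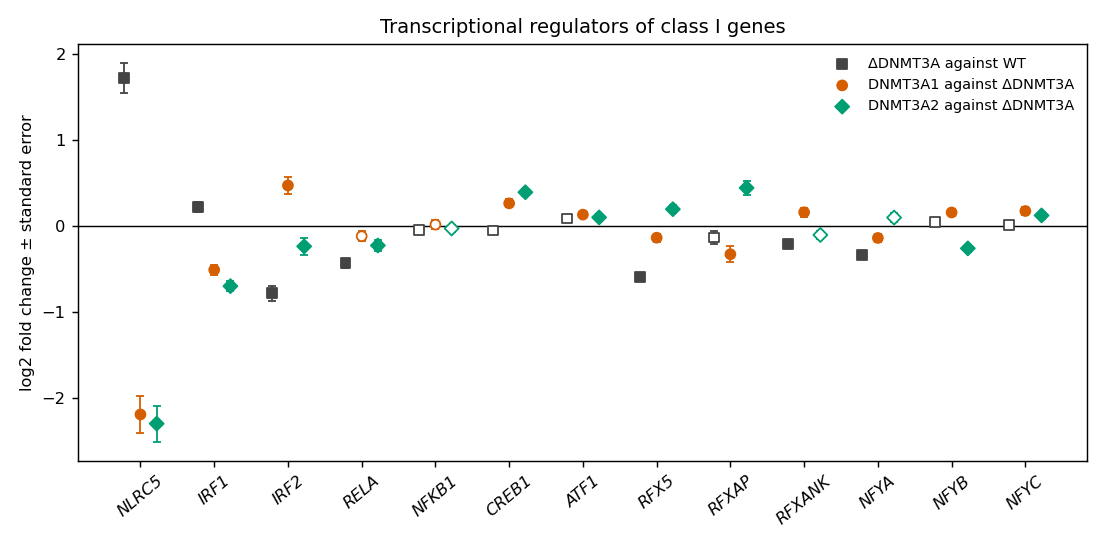
Log2 fold change (vertical axis) with its standard error for the tested regulators of class I genes named on the horizontal axis, in ΔDNMT3A against WT and in each isoform line against ΔDNMT3A. Filled symbols passed the test. NLRC5 stands apart at 1.72, -2.19 and -2.30, and the other values lie between -0.79 and 0.47.

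Except for B2M, all members lie on chromosome 6 between 30489467 and 33314387, and the other 228 annotated genes there give a local background. Of these, 93 were tested in ΔDNMT3A against WT, with 25 higher, 26 lower and a median log2 fold change of -0.02, where 31.2% of all tested genes were higher and 31.0% lower. In DNMT3A1 against ΔDNMT3A the median of 95 neighbours was 0.01, and in DNMT3A2 against ΔDNMT3A it was -0.02 over 89, with 23 higher and 32 lower, where 34.1% of all tested genes were lower. In DNMT3A2 against WT their median was -0.16 with 22 higher and 41 lower of 89, where 34.4% of all tested genes were lower, and in DNMT3A2 against DNMT3A1 it was -0.11 with 23 higher and 37 lower of 91, where 34.5% were lower. The part of these lower neighbour medians in the member differences of those comparisons was not tested. The median of the 50 tested genes nearest to TAP1 was -0.19 and -0.16 in the same comparisons, against -3.02 and -2.32 for TAP1. It was 0.07 for DNMT3A1 and -0.01 for DNMT3A2, again relative to ΔDNMT3A. Among neighbours past the threshold in ΔDNMT3A with a mean of at least 1 CPM over all 15 libraries, the highest were PSORS1C1 (2.36) and the complement gene C2 (0.77), which was at 0.557 CPM in WT and 0.959 in ΔDNMT3A with overlapping libraries, and the lowest were the small nucleolar RNA gene SNORA38 (-1.10) and the complement factor B gene CFB (-0.81). CFB, like HLA-B, rose in DNMT3A1 (0.69) and fell in DNMT3A2 (-0.47) against ΔDNMT3A.

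TAP2, PSMB8, PSMB9 and TAP1 form a cluster within this region. The antisense gene PSMB8-AS1, which starts inside PSMB8 on the opposite strand, held 33, 20, 9 and 1 counts over the libraries of WT, ΔDNMT3A, DNMT3A1 and DNMT3A2. HLA-DOB, the neighbour beyond TAP2, held 33, 23, 7 and 6. Counting was strand-specific, so the 21.2% of PSMB8 exonic bases that face PSMB8-AS1 do not mix the 2 genes. PSMB8-AS1 and PSMB9 share the plus strand, and 5.66% of the PSMB9 exonic bases in the annotation used for counting also belong to PSMB8-AS1. In reference transcripts, 1.91% of the 75-base windows of PSMB9 recur in PSMB8-AS1.

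**Figure D5:**
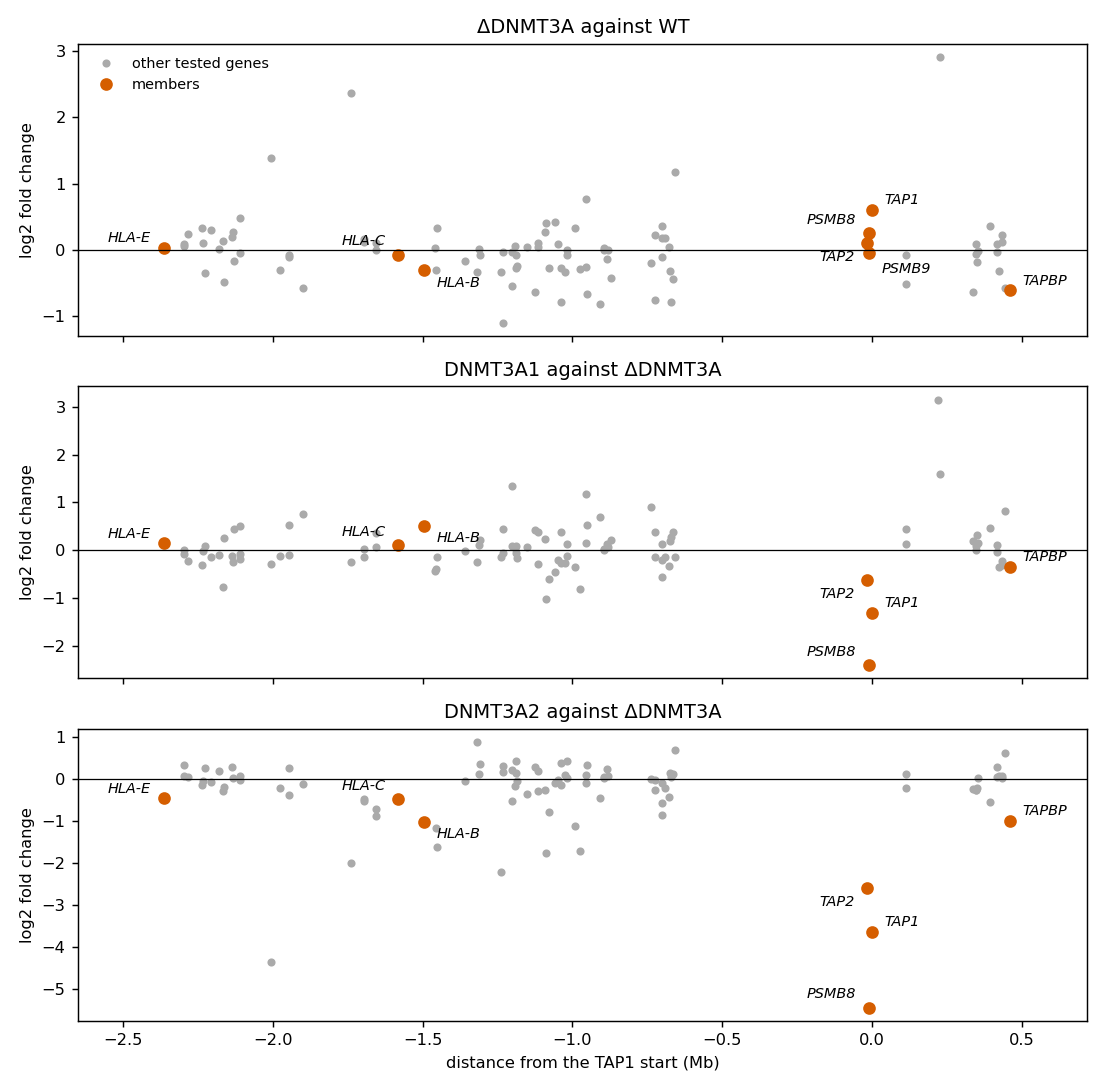
Log2 fold change (vertical axis) of members (orange) and other tested genes (grey) of the MHC region by the distance of their starts from the TAP1 start in Mb, in 3 comparisons. TAP1, TAP2 and PSMB8 share a place and lie at -3.63, -2.61 and -5.44 in DNMT3A2, while the median of the grey genes is -0.02.

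Profiles like those of the members were sought among 13751 other genes with a mean of at least 1 CPM, over 15 libraries that share 4 lines. Among the profiles most like the mean standardized profile of the 9 members were those of AATK (Pearson r = 0.995), FOXM1 (0.994), LGALS2 (0.994) and ABCB1 (0.993). ABCB1, a drug efflux pump, was at 415, 465, 252 and 63.1 CPM in WT, ΔDNMT3A, DNMT3A1 and DNMT3A2, and it was also among the 3 genes most like TAP2. PSMB8 was most like MYLK (0.992), the interferon-induced gene IFI6 (0.990) and EPB41L1 (0.988). IFI6 was at 25.9, 36.4, 7.14 and 2.80 CPM in the same lines. HLA-B was most like PELI3 (0.991). TAPBP was most like MVK (0.996), a mevalonate pathway gene that also stepped down from line to line. With 4 lines, a high r means only the same order and spacing of line means, and no test was made.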

How the data were processed

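RNA of Caco-2 cells was sequenced by the authors as 2 x 75 bp stranded total RNA libraries. Per the file headers and the study's methods, reads were trimmed with Trim Galore 0.4.4, aligned to GRCh38 with STAR 2.5.2b and counted per gene by strand with featureCounts 1.5.2. The deposited values are raw counts with no normalization. Per the labels, 15 of 16 Caco-2 libraries were used, and mouse libraries were not used.

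Symbols were matched for 56948 of 58051 identifiers. Counts were filtered with filterByExpr, scaled by TMM and tested with edgeR 4.0.16 (R 4.3.3) in the 2 groups compared, with Benjamini-Hochberg adjustment. TPM used the exon lengths in the files. A pseudocount of 0.01 TPM was used for ratios, 0.5 CPM for profiles and 0.1 CPM for differences within lanes. Precision follows the counts, and a zero allows up to 3 counts. The test was checked on simulated counts. DESeq2 1.42.0, other scalings, filters, a replicate block, a lane term, a fit of all 15 libraries, a length correction and leaving out each library were alternatives.

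The members and lists were chosen with earlier results of these data known. Named are all 9 members, DNMT3A, fixed partners, and from each list and the MHC neighbours the 2 highest and 2 lowest genes called in ΔDNMT3A against WT with a mean of at least 1 CPM, plus the most alike profiles. A few genes that this rule names are not reported here. Promoter letters are RefSeq's (GRCh38.p14).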

Additional observations from a re-analysis of the deposited data

Results flagged for a closer look

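Among the 4-library groups of the members and DNMT3A, 30 were examined for a library apart from the others of its group, and chance alone flags about 1 in 20 such groups. The values of 3 groups were flagged. TAP1 in DNMT3A2 replicate 2 was at 1.01 CPM (22 counts), above the 0.395 to 0.486 CPM of the other 3 libraries, and leaving it out moved the fall against ΔDNMT3A from -3.63 to -3.96 on the log2 scale. HLA-C in WT replicate 3 was at 89.4 CPM, above 77.1 to 79.0 CPM. HLA-E in DNMT3A2 replicate 3 was at 44.5 CPM, below 46.3 to 46.7 CPM.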

How the results depend on the processing

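The counts of members called in each comparison, the DNMT3A check and the ratios gave 354 alternative values, of which 339 kept their direction and side of the threshold or stayed within 1.5 times. Requiring a log2 fold change of at least 1 beside the adjusted p left 0 members higher and 0 lower in ΔDNMT3A against WT, 0 higher and 2 lower in DNMT3A1 against ΔDNMT3A, 4 lower in DNMT3A2 against ΔDNMT3A, 0 higher and 1 lower in DNMT3A1 against WT, 5 lower in DNMT3A2 against WT, and 0 higher and 4 lower in DNMT3A2 against DNMT3A1, by its own construction. Of all tested genes, 7.47% were lower by that rule in DNMT3A2 against ΔDNMT3A. For the other comparisons that share was not computed, so those counts stand without a background. At the adjusted p alone and without WT replicate 3, 2 members were higher in ΔDNMT3A against WT in place of 1, as PSMB8 joined TAP1. Over all left-out libraries this count ran from 1 to 2. The PSMB9 to PSMB6 ratio in ΔDNMT3A against WT, which passed no test, ran from -0.23 to 0.20 on the log2 scale over left-out libraries, and its sign turned in 4 of them (0.20, 0.01, 0.12 and 0.07). PSMB9 itself, with a range of -0.24 to 0.14 there, turned without WT replicate 3 (0.10), WT replicate 4 (0.04) and ΔDNMT3A replicate 2 (0.14). A pseudocount of 0.1 TPM, chosen after seeing the data, gave -4.68 for PSMB8 to PSMB5 in DNMT3A2 against ΔDNMT3A in place of -6.59, because 2 of those libraries hold no counts. HLA-C in DNMT3A1 against ΔDNMT3A lost its call without the filter on low counts (adjusted p = 0.0633). Pairing by replicate number was examined on each library's deviations from the mean of its line. These deviations correlated between -0.142 and 0.117 (median 0.0309) for same-numbered libraries of different lines. For other numbers they correlated between -0.177 and 0.111 (median -0.00671), so no clear pairing was seen. With the replicate block 73 of 74 results kept their call, and HLA-C in DNMT3A1 against WT gained one (0.11, adjusted p = 0.0235). Within sequencing lanes, 52 of 54 member differences, which reuse the same lines, had the same sign in both lanes. The exceptions were B2M and PSMB9 in ΔDNMT3A against WT. Sizes differed most for PSMB8, where the lanes were 1.87 apart on the log2 scale in DNMT3A2 against DNMT3A1. They were 1.15 apart in DNMT3A2 against ΔDNMT3A and in DNMT3A1 against WT. Depth limits PSMB9, PSMB8 in DNMT3A2 and HLA-F.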
